A study of Drosophila melanogaster with 12 samples.

Results

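Transcripts of 34 Drosophila melanogaster tetraspanin genes, out of 11979 genes named on the array, were followed in small pools of neural precursor cells from embryos with and without functional prospero. The genes were taken by name alone, as every symbol in the platform annotation made of Tsp and a number, plus lbm (late bloomer). The name pattern uses no measured value, but earlier results of these data were known when it was chosen. They were read by 36 probes. Of the 34 genes, 18 belong to the Tsp42 cluster (the symbols that begin with Tsp42E, and lbm), and the other 16 lie elsewhere in the genome. The prospero mutant group held 6 arrays of cells from pros17/pros17 embryos. The group called wildtype held 6 arrays of cells from embryos with pros17 over the balancer chromosome TM3-KrGFP, so both groups carried pros17 and the comparison is of homozygotes with heterozygotes. Prospero is a transcription factor that neuroblasts pass to their daughters, the ganglion mother cells (GMCs), and the comparison asks which transcripts depend on it. Each sample was the amplified RNA of 50 to 100 cells of the mixed neuroblast and GMC population of the ventral nerve cord at stage 11, set on the same array against RNA of about 30 whole w1118 embryos of stages 10 to 12. The cells were in Cy3 on replicates 1 to 3 of both groups and in Cy5 on replicates 4 to 6. Whether the replicates of a group are separate embryos is not in the labels, so the spread behind each p-value is that between these samples and may be technical.

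Tetraspanins are small proteins that cross the membrane several times and carry a large extracellular loop. They bind one another and gather partners such as integrins and ADAM-family proteases into patches of membrane, where they affect adhesion, shedding of surface proteins and vesicle traffic. In the fly embryo lbm is known from the growth cones of motor axons, where it helps the nerve form its synapse on muscle, and Tsp42Ea and Tsp42Ep have been studied beside it in that process. Among the genes outside the cluster, Tsp86D and Tsp26A are known as partners of Kuzbanian, the metalloprotease that cleaves Notch, and Tsp2A as a component of the smooth septate junctions of the gut.

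Levels are given as the deposited log2 ratio of cells over whole-embryo reference, so that 0 is the level of the reference and 1 is 2 times as high. The labels do not state the direction of the ratio, which is the likely one, and the centring before deposit is not known, so a level against 0 carries no test. An exact 0 (22.1% to 38.6% of the probes of an array) and a value beyond 11 in size, where only 1 channel had signal, were treated as missing, which left 8421 to 10030 ratios per array. The targeted gene matched the labels: pros stood at -2.99 ± 0.69 in prospero mutant cells and 2.17 ± 0.99 in wildtype cells (SD, n = 6 each). Wildtype replicates 4 to 6 stood apart from the other arrays. They carried higher levels of neuronal genes (the median of the neuron list was 2.97, 2.16 and 2.02 on them, against 0.86, 0.20 and 0.57 on wildtype replicates 1 to 3 and -2.28 to 0.21 on the mutant arrays) and lower levels of neuroblast genes (medians of -0.09, -0.51 and -0.72, against 1.25, 0.90 and 1.19 on wildtype replicates 1 to 3 and 0.54 to 1.89 on the mutant arrays). Within wildtype, 485 of 7895 genes and unnamed probes (6.14%) differed between the dyes at an adjusted p under 0.05. Within the mutant 0 of 8399 did, and 1421 of these had an unadjusted p under 0.05. In wildtype the dye of the cells and whatever else sets those 3 arrays apart cannot be told apart. Each result below that rests on them is therefore given for each dye orientation as well. In pooled cells, fewer cells of a type and less RNA per cell also cannot be told apart.

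Ratios were present on at least 4 arrays of each group for 24 of the 34 tetraspanin genes, 13 in the Tsp42 cluster and 11 outside it, and these were tested. The limma fit on all 12 arrays, with the dye of the cells as a term and Benjamini-Hochberg adjustment over 8165 rows, passed 3 of the 24: Tsp42Ea was higher in prospero mutant cells, and lbm and Tsp86D were lower. The share passing over all rows was 4.95% (1.58% higher and 3.37% lower, 129 and 275 rows). After median centring of the arrays the rows passing were 392 higher and 219 lower, and after quantile scaling 289 higher and 170 lower. At an unadjusted p under 0.05 there were 8 of the 24, against 25.9% of all rows. With the exact 0 and 1-channel values kept as deposited, 0 tetraspanin genes passed (6 at an unadjusted p under 0.05), and the difference of Tsp86D was then -0.36. The fitted difference was above 0 for 9 of the 24 and below 0 for 15, with a median of -0.55, beside a median of -0.13 over all rows, of which 3320 were above 0 and 4845 below. The mean level was above the reference in 6 of the 24 genes in mutant cells (25.0%) and in 5 in wildtype cells (20.8%), against 49.3% and 54.7% of all rows. These counts hold for the likely direction of the ratio and the deposited centring, and with the ratio turned they would count the genes below the reference.

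**Figure D1:**
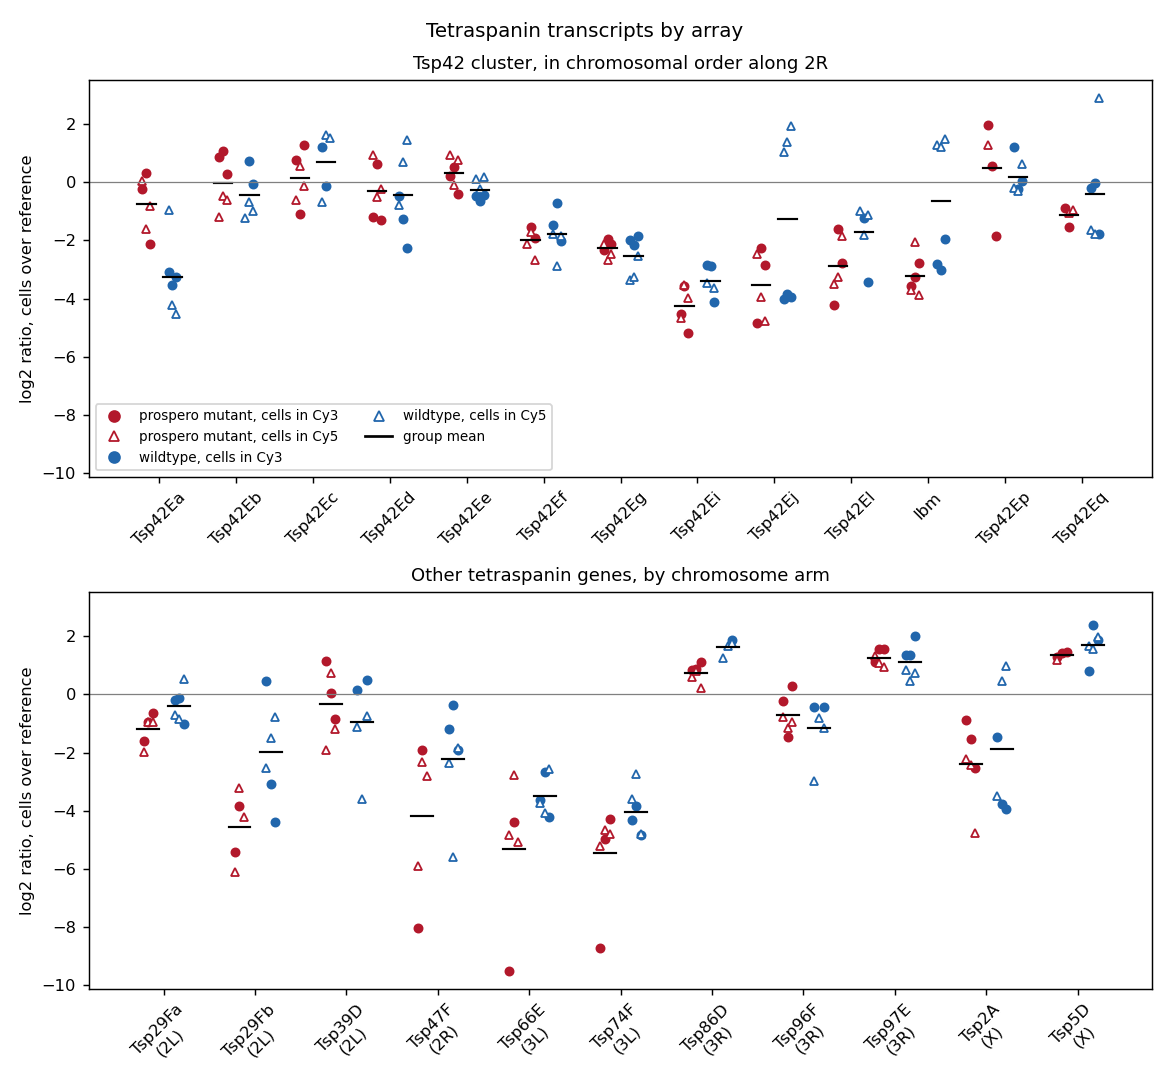
Log2 ratio of cells over reference on each array (vertical axis) for the 24 tested tetraspanin genes, with the Tsp42 cluster in chromosomal order in the upper panel and the others by chromosome arm in the lower panel. Red marks are prospero mutant arrays and blue marks wildtype arrays, filled circles have the cells in Cy3 and open triangles in Cy5, and bars are group means; for Tsp42Ej and lbm the 3 wildtype triangles lie at or above 1.02 and every other mark lies at or below -1.96.

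The Tsp42 cluster is a run of neighbouring genes on chromosome arm 2R. In the RefSeq gene table (Release 6 plus ISO1 MT), 24 protein-coding genes lie between its ends, and 18 of them are the cluster's own members. Tsp42A, in spite of its name, is set off from Tsp42Ea by 100 other protein-coding genes and was counted with the others. The genome build behind the probes is not given in the sources used here, so no coordinates are printed. Some members overlap a neighbour in that table (Tsp42Ea with Tsp42Eb, Tsp42Ej with Tsp42Ek, and Tsp42Ep with Tsp42Eo), and which gene of such a pair a probe reads was not examined.

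Tsp42Ea, which stands at one end of the cluster, was the tetraspanin gene that rose. Its level was -0.25, 0.31, -2.12, 0.03, -1.59 and -0.83 on prospero mutant replicates 1 to 6, against -3.10, -3.53, -3.25, -0.96, -4.24 and -4.52 on wildtype replicates 1 to 6. Mutant cells were near the whole-embryo level on replicates 1, 2 and 4, while wildtype cells were far below it on every array but replicate 4, the only one that reached into the mutant range. The means were -0.74 ± 0.96 in mutant cells and -3.27 ± 1.26 in wildtype cells (SD, n = 6 each), a difference of 2.52 (SE 0.61, 95% interval 1.18 to 3.87), which is 5.75-fold, with a limma adjusted p of 0.0403. A two-sided exact permutation test over the 924 splits of the arrays gave p = 0.00649, where the smallest possible was 0.00216. The difference had nearly the same size in both orientations, 2.60 on the Cy3 arrays (cells in Cy3) and 2.44 on the Cy5 arrays (cells in Cy5), although neither passed alone with 3 arrays a group (limma adjusted p = 0.200 and 0.205). The rise was therefore as large without the 3 wildtype arrays that stood apart. The call nonetheless depended on single arrays: it was lost when any one of 8 of the 12 arrays was left out (mutant replicates 1, 2, 4 and 6 and wildtype replicates 2, 3, 5 and 6), with differences of 2.25 to 2.54 and adjusted p of 0.0610 to 0.0988.

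lbm fell. Its level was -3.58, -3.27, -2.76, -3.71, -2.04 and -3.89 on the mutant arrays, against -2.82, -3.02, -1.96, 1.29, 1.21 and 1.497 on the wildtype arrays. All 6 mutant arrays and wildtype replicates 1 to 3 were low and overlapped, and wildtype replicates 4 to 6 alone were above the reference. The means were -3.21 ± 0.69 in mutant cells and -0.64 ± 2.18 in wildtype cells (SD, n = 6 each), a difference of -2.57 (SE 0.66, 95% interval -4.03 to -1.12) with a limma adjusted p of 0.0485 and a two-sided exact permutation p of 0.0216. The difference was -0.60 on the Cy3 arrays (limma adjusted p = 0.537) and -4.54 on the Cy5 arrays (limma adjusted p = 0.0117). The fall of lbm thus rested on wildtype replicates 4 to 6. Without those arrays 0 tetraspanin genes passed (2 at an unadjusted p under 0.05). Only 3 of all 8138 rows passed there, so that count of 0 says little about lbm or the other tetraspanin genes. The call was also lost when any one mutant array but replicate 3, or wildtype replicate 3, 4, 5 or 6, was left out (-2.78 to -2.20, adjusted p of 0.0518 to 0.112).

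Tsp42Ej, known as sunglasses and needed for the breakdown of rhodopsin in photoreceptors, had the same shape as lbm. It stood at -4.85, -2.26, -2.84, -2.46, -3.96 and -4.78 on the mutant arrays, against -4.03, -3.84, -3.96, 1.02, 1.37 and 1.92 on the wildtype arrays. Again wildtype replicates 4 to 6 were high and all the others low and overlapping. The fitted difference over all arrays was -2.27 (SE 0.97, limma adjusted p = 0.166) and did not pass. It was 0.63 on the Cy3 arrays (limma adjusted p = 0.717) and -5.17 on the Cy5 arrays (limma adjusted p = 0.0117). Of the tetraspanin genes fitted on 1 orientation, 0 of 23 passed on the Cy3 arrays (1 at an unadjusted p under 0.05), where 0.0254% of all rows did, and 2 of 24 passed on the Cy5 arrays, lbm and Tsp42Ej, where 6.9% of all rows did. The 24 on the Cy5 arrays held Tsp42Ek and Tsp42Eh in place of Tsp42Ep and Tsp5D.

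The dependence on orientation was tested for 21 of the tetraspanin genes and passed for lbm and Tsp42Ej, against 0.419% of all rows. At an unadjusted p under 0.05 there were 3 of the 21, against 16.6% of all rows. The Cy5 difference minus the Cy3 difference was -3.94 for lbm (SE 0.67) and -5.80 for Tsp42Ej (SE 0.96), both with a limma adjusted p of 0.0399. Within wildtype, the level on the Cy5 arrays exceeded that on the Cy3 arrays by 3.93 for lbm (limma adjusted p = 0.00936) and by 5.38 for Tsp42Ej (limma adjusted p = 0.00696). The same contrast within the mutant was -0.01 for lbm and -0.42 for Tsp42Ej. By the size of this wildtype contrast, counted from the most positive, Tsp42Ej ranked 4 and lbm 28 among the 7895 rows. These dye contrasts were set up after the arrays had been looked at. No other tetraspanin gene passed either test. Tsp42Ek, which overlaps Tsp42Ej in the gene table, had 2.16, -0.06 and -0.89 on mutant replicates 4 to 6, against 2.68, 3.31 and 7.30 on wildtype replicates 4 to 6, with 0.13 on wildtype replicate 2 and no ratio on the other arrays. It had too few ratios for the fit over both dyes, and its dependence on orientation could not be read.

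Some neuronal genes were also high on those 3 wildtype arrays. nSyb, a synaptic vesicle protein, ranged from -5.19 to -1.23 in mutant cells, against -0.28, -0.34, -0.39, 3.10, 2.16 and 1.17 on the wildtype arrays, with a difference of -4.10 (limma adjusted p = 0.0177). Unlike the values of lbm (-0.60) and Tsp42Ej (0.63), the nSyb and VAChT differences on the Cy3 arrays were also well below 0 (-3.14 and -2.98, limma adjusted p = 0.230 and 0.177). Those of ChAT and brp were -1.25 and -0.53 (limma adjusted p = 0.200 and 0.555). The brp values were thus near those of lbm, with a Cy5 difference of -4.90 beside -4.54 for lbm. Of the 5 tested genes of the neuron list, 3 were lower in the mutant (ChAT, VAChT and nSyb), while elav, the general neuronal marker, was above 0 on every array and had a difference of 0.14 (limma adjusted p = 0.840) and a wildtype contrast between the dyes of -0.06. Of the 8 tested neuroblast genes, 4 were higher in the mutant (ase, dpn, klu and mira), while nerfin-1 had a difference of -0.62 (limma adjusted p = 0.194). Of all rows 1.58% were higher and 3.37% lower. On the Cy3 arrays the differences of ase, dpn, klu and mira were 0.39, 1.26, 1.12 and 1.35, and on the Cy5 arrays 2.59, 2.86, 2.18 and 2.73. The dependence on orientation passed for ase (limma adjusted p = 0.0441). Beyond these, 1 of 5 tested glial genes (repo) and 1 of 4 muscle genes (htl) were lower. 1 of 6 tested hemocyte genes (SPARC) and 1 of 4 epidermal genes (pnr) were higher. Some genes of these lists had differences the other way without passing, such as wrapper of the glial (0.93), srp of the hemocyte (-0.52) and knk of the epidermal list (-0.43). The part of neuronal content, dye or batch in the values of lbm and Tsp42Ej was not tested.

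**Figure D2:**
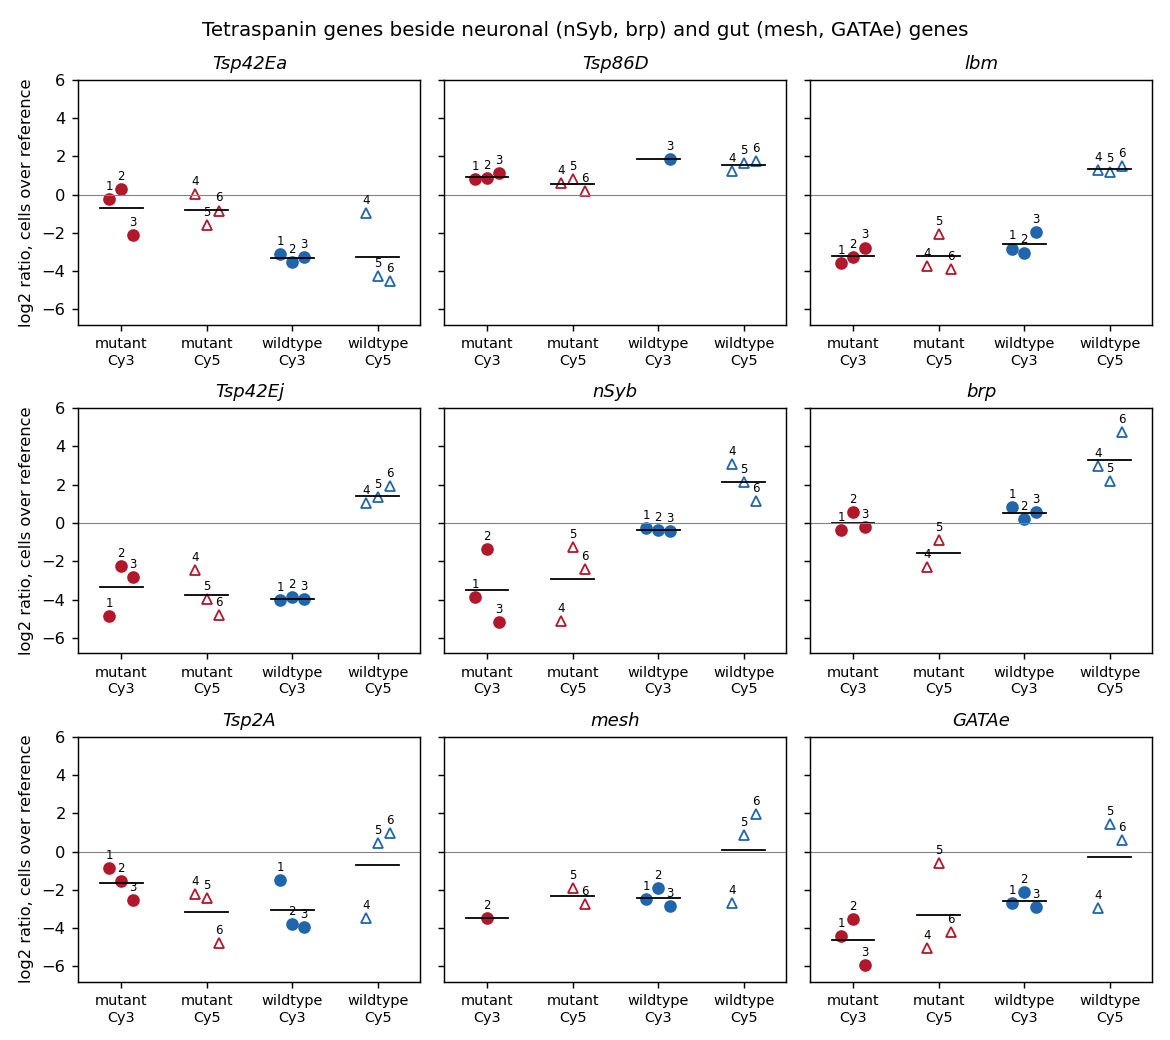
Log2 ratio of cells over reference (vertical axis, the same scale in every panel) for 5 tetraspanin genes, 2 neuronal genes (nSyb, brp) and 2 gut genes (mesh, GATAe), split by group and by the dye of the cells, with replicate numbers beside the points and bars for the means. lbm and Tsp42Ej are high on the 3 wildtype arrays with the cells in Cy5, as nSyb and brp are, while Tsp42Ea is higher in the mutant in both orientations (differences of 2.60 and 2.44).

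The remaining tested members of the cluster did not pass. Tsp42Ee was close to the whole-embryo level: it ranged from -0.39 to 0.92 in mutant cells with a median of 0.36, and from -0.65 to 0.16 in wildtype cells with a median of -0.34. The mutant values lay mostly above the wildtype ones but overlapped them, with a difference of 0.58 (limma adjusted p = 0.142). Tsp42Ei was the lowest tested member of the cluster, at -5.19 to -3.55 in mutant cells (median -4.26) and -4.11 to -2.84 in wildtype cells (median -3.45, n = 5), with a difference of -0.88 (limma adjusted p = 0.168). Tsp42El ranged from -4.23 to -1.61 in mutant cells (median -3.02) and from -3.45 to -0.98 in wildtype cells (median -1.24, n = 5), with a difference of -1.11 (limma adjusted p = 0.249). Both were below the reference on every array that measured them, and in both the groups overlapped.

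Tsp42Ef and Tsp42Eg were also below the reference wherever they were measured and were nearly level between the groups. Tsp42Eg, for example, ranged from -2.69 to -1.94 in mutant cells and from -3.36 to -1.86 in wildtype cells, with a difference of 0.25 (limma adjusted p = 0.517). Tsp42Eb, Tsp42Ec, Tsp42Ed, Tsp42Ep and Tsp42Eq had values on both sides of 0, and their differences lay between -0.70 and 0.33. Tsp42Eb overlaps the gene that rose, and it did not pass, at -1.20 to 1.05 in mutant cells and -1.25 to 0.72 in wildtype cells (difference 0.29, SE 0.25, 95% interval -0.26 to 0.84). Its 2 probes disagreed where both had a ratio.

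Among the tetraspanin genes outside the cluster, Tsp86D fell, and it was the only member of the 24 whose groups did not overlap (2.52% of all rows were lower in the mutant without overlap). It is a partner of Kuzbanian and lies on 3R, the chromosome arm that also holds pros. Its level was 0.82, 0.86, 1.11, 0.60, 0.80 and 0.21 on the mutant arrays, against 1.87, 1.25, 1.66 and 1.76 on wildtype replicates 3 to 6, with no ratio on wildtype replicates 1 and 2. Every array that measured it stood above the whole-embryo level, and every mutant value lay below every wildtype value. The means were 0.73 ± 0.30 in mutant cells (SD, n = 6) and 1.64 ± 0.27 in wildtype cells (SD, n = 4), with a fitted difference of -0.99 (SE 0.22, 95% interval -1.48 to -0.50), a 1.99-fold fall, and a limma adjusted p of 0.0353. The two-sided exact permutation p was 0.00476, the smallest that the 210 splits can give. The difference was -1.02 on the Cy5 arrays alone (limma adjusted p = 0.0991), and the Cy3 arrays held only 1 wildtype ratio, so no fit was made there and the fall rests mostly on wildtype replicates 4 to 6. The call was lost when mutant replicate 1, 2, 4 or 6 was left out (-1.01 to -0.89, adjusted p of 0.0518 to 0.0839), and kept without mutant replicate 3 or 5. Leaving out wildtype replicate 3, 4, 5 or 6 left too few wildtype ratios for the fit, so the dependence on these arrays could not be read. Wildtype replicates 1 and 2 held no ratio, so leaving them out removed no value of this gene. The mutant cells were homozygous for the pros17 chromosome, and the wildtype cells carried it over TM3-KrGFP. A difference between these chromosomes at Tsp86D therefore cannot be told apart from the loss of prospero.

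kuz itself, which encodes Kuzbanian, was above the reference on every array, at 0.25 to 2.04 in mutant cells and 0.05 to 2.15 in wildtype cells, with a difference of 0.03 (95% interval -0.60 to 0.65, limma adjusted p = 0.968). Tsp26A, another Kuzbanian partner, had no ratio on any array. It gave signal in 1 channel only on mutant replicates 1 and 3 and wildtype replicates 1 and 3, so it was not compared.

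Tsp29Fa and Tsp29Fb are neighbours on 2L with no protein-coding gene between them, and both had lower means in the mutant without passing. Tsp29Fb stood at -5.43, -3.82, -6.11, -3.23 and -4.21 on mutant replicates 1, 2, 4, 5 and 6, against 0.47, -3.09, -4.39, -2.55, -1.51 and -0.76 on the wildtype arrays. Mutant replicate 3 had no ratio, and wildtype replicate 3 lay inside the mutant range. Its difference of -2.63 was the widest of the 24 in size but had a limma adjusted p of 0.0881. Tsp29Fa ranged from -1.98 to -0.63 in mutant cells (median -0.96) and from -1.01 to 0.53 in wildtype cells (median -0.45), with a difference of -0.78 (limma adjusted p = 0.150).

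Tsp2A did not pass. Its level was -0.88, -1.52, -2.53, -2.22, -2.43 and -4.78 on the mutant arrays, against -1.48, -3.78, -3.92, -3.50, 0.47 and 0.98 on the wildtype arrays. Wildtype replicates 5 and 6 alone were above the reference, and elsewhere the groups overlapped throughout. The difference was -0.52 over all arrays (limma adjusted p = 0.772), 1.42 on the Cy3 arrays and -2.46 on the Cy5 arrays, and the difference between orientations had an unadjusted p of 0.0384 and an adjusted p of 0.269. Its junction partners stood higher on wildtype replicates 5 and 6 than on most other arrays. mesh stood at 0.87 and 1.98 on wildtype replicates 5 and 6 and between -3.47 and -1.91 on the other arrays that measured it, and the gut regulator GATAe stood at 1.44 and 0.62 on those replicates, at -0.60 on mutant replicate 5 and between -5.92 and -2.13 elsewhere. Ssk stood at -0.76 and -0.98 on wildtype replicates 5 and 6 and at -0.80 on mutant replicate 5, and was at or below -4.43 on the others. Of the same gut list as GATAe, fkh and hkb did not stand out there. fkh stood at -2.74 on wildtype replicate 5 and had no ratio on replicate 6. hkb stood at 1.77 and 1.45 on wildtype replicates 5 and 6, and at 0.63 to 2.57 on wildtype replicates 1 to 4. The part of gut cells in the Tsp2A values was not tested.

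The 3 lowest of the 24 tested genes were Tsp74F and Tsp66E, both on 3L, and Tsp42Ei. Tsp74F ranged from -8.73 to -4.28 in mutant cells (median -4.88) and from -4.83 to -2.75 in wildtype cells (median -4.09), with a difference of -1.41 (limma adjusted p = 0.199). Tsp66E ranged from -9.51 to -2.77 in mutant cells (n = 5, median -4.84) and from -4.22 to -2.57 in wildtype cells (median -3.69), with a difference of -1.95 (limma adjusted p = 0.211). Their groups overlapped, and in both the lowest value was mutant replicate 1, which also held the lowest Tsp47F value (-8.04). Without that array the differences were -0.78 for Tsp74F, -0.80 for Tsp66E and -0.52 for Tsp47F. The highest 3 of the 24 were Tsp86D, Tsp97E and Tsp5D, which were above the reference on every array that measured them. Tsp97E ranged from 0.93 to 1.56 in mutant cells (median 1.23) and from 0.47 to 1.99 in wildtype cells (median 1.09), a difference of 0.14 (limma adjusted p = 0.711). Tsp5D stood at 1.29, 1.43, 1.45 and 1.16 on mutant replicates 1 to 4, with a range of 0.78 to 2.39 and a median of 1.76 in wildtype cells, and a difference of -0.38 (limma adjusted p = 0.491). Tsp39D, Tsp47F and Tsp96F were not called either, with differences of 0.47, -1.92 and 0.36.

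**Figure D3:**
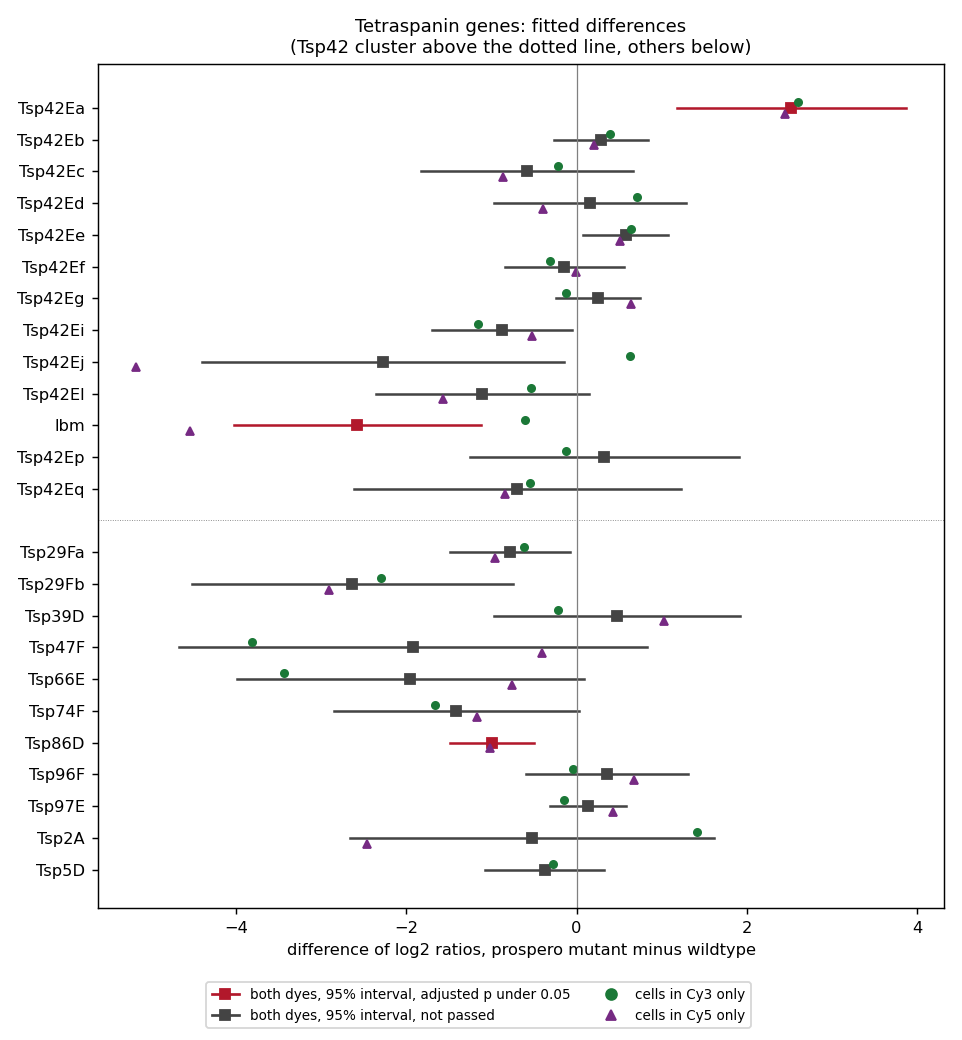
Fitted difference of log2 ratios, prospero mutant minus wildtype (horizontal axis), for the 24 tested genes, the Tsp42 cluster above the dotted line and the others below it. Squares with lines are the fit on both dyes with its 95% interval, red where the adjusted p is under 0.05, and the circles and triangles are the same difference with the cells in Cy3 only and in Cy5 only; for Tsp42Ej the circle (0.63) and the triangle (-5.17) lie on opposite sides of 0.

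The other 10 genes were not tested. Tsp42Eo, Tsp26A, Tsp42A, Tsp66A and Tsp68C had no ratio on any array. Tsp42Eh had 5 mutant and 3 wildtype ratios, between -0.62 and 0.04 in mutant cells and between -2.33 and -0.46 in wildtype cells. Tsp42Ek had 3 and 4, Tsp42En 2 and 3, and Tsp42Er 3 and 2, and Tsp33B had 1, on wildtype replicate 6 (1.75). These genes had too few ratios for that fit, and a missing ratio does not show that a gene is silent. On the Cy5 arrays alone the difference was -4.02 for Tsp42Ek and 0.77 for Tsp42Eh (limma adjusted p = 0.143 and 0.419).

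The difference between the Tsp42 cluster and the other tetraspanin genes was described and not tested, since genes are not replicates of a condition. In the cluster 6 fitted differences were above 0 and 7 below, with a median of -0.14 (0.037 after median centring and 0.066 after quantile scaling) and a range of -2.57 to 2.52. Outside it 3 were above 0 and 8 below, with a median of -0.78 and a range of -2.63 to 0.47. The medians of both sets lay well inside the range of the other, and the 2 calls within the cluster, Tsp42Ea and lbm, had opposite directions. The median level of the cluster's genes was between -2.02 and -1.06 on the mutant arrays and between -1.998 and 0.16 on the wildtype arrays, and for the other genes between -2.004 and -0.18 on the mutant arrays and between -2.37 and -0.31 on the wildtype arrays. The 3 highest medians of the cluster were those of wildtype replicates 4, 5 and 6 (-0.96, -0.50 and 0.16). Of the 24 tested genes, 7 were below the reference on every array that measured them (29.2%, against 19.5% of all rows) and 3 were above it on every array (12.5%, against 23.1%).

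**Figure D4:**
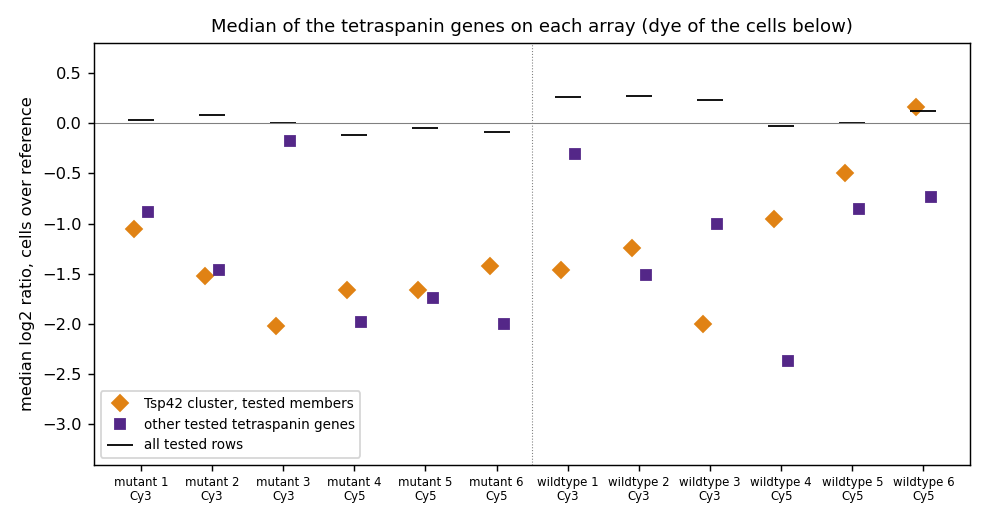
Median log2 ratio of cells over reference on each array (vertical axis) for the tested genes of the Tsp42 cluster and for the other tested tetraspanin genes, prospero mutant arrays on the left and wildtype arrays on the right. The cluster's median was highest on wildtype replicate 6 (0.16) and between -2.02 and -1.06 on the mutant arrays.

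Genes whose products work with tetraspanins gave no call in the fit on all 12 arrays, where 4.95% of all rows passed. For so few genes no call is near that share. Of the integrin subunit genes 5 of 7 were tested and 0 passed. mys, the main integrin beta subunit, had a difference of 0.55 (95% interval 0.16 to 0.95, limma adjusted p = 0.0862). Of the ADAM protease and Notch pathway genes 4 of 7 were tested and 0 passed, and N was not analysed here. Tace, an ADAM protease, was high on wildtype replicates 4 to 6 (1.23, 1.55 and 1.65) and had a difference of -0.96 over all arrays (limma adjusted p = 0.306), 0.44 on the Cy3 arrays (limma adjusted p = 0.819) and -2.35 on the Cy5 arrays (limma adjusted p = 0.0117). Of the 3 smooth septate junction genes 2 were tested and 0 passed, hoka with -3.27 (limma adjusted p = 0.0973) and Ssk with -2.20 (limma adjusted p = 0.261). Of 9 genes of vesicle secretion 6 were tested and 0 passed.

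The genes most like the called members were sought by the correlation left after the mean of each group and dye had been taken out, as a description over points that share arrays and amplification. For Tsp42Ea these were ihog, Dtg, CG16959, CRAT and Rcd6, with Pearson's r of 0.962 to 0.969 over 12 arrays among 6691 genes. For Tsp86D the nearest was CG14868 (r = 0.976 over 10 arrays), followed by lmgB, CG4984, Dhit and msl-2. For lbm the nearest was Chmp1 (r = 0.943), followed by CG4957, gol, yps and CG6296. None of the 3 lists held another tetraspanin gene, but lists so short would seldom hold one, so nothing is drawn from it.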

How the data were processed

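RNA of 12 cell samples was measured on 2-colour arrays against a common reference. The deposited values are log2 ratios for 14569 probes, of which 12657 carry 1 gene symbol in GEO's platform annotation, 96 several and 1816 none. How the authors scanned, background-corrected and normalized the arrays is not stated in the labels. Base 2 was read from the values: 1-channel levels fell on even steps (mean miss under 0.1) on 10 of 10 arrays for base 2, 1 for base e and 0 for base 10. The ratios are read as cells over reference because the median of the epidermal marker list was below 0 on all 12 arrays. pros was above 0 on all 6 wildtype arrays and below 0 on all 6 mutant arrays. elav, dpn, ase and wor were above 0 on all 12 arrays, while the other tested genes of the neuron and neuroblast lists were not. The median of the hemocyte list was above 0 on all but 1 array, and the direction is not stated in the labels. Exact 0 and values beyond 11 in size were set to missing, and probes of a gene were averaged. limma 3.58.1 (R 4.3.3) fitted group and dye on rows with at least 4 ratios per group, with eBayes and Benjamini-Hochberg adjustment at 0.05, and the interaction of group and dye on rows with at least 2 per group and dye. The fit was tested on simulated data. The members, gene lists and tests were chosen with earlier results of these data known. Every member is accounted for, some only by a shared range or a count of ratios. Chosen for values of their own were those past the threshold, the 4 lowest p in and outside the cluster, the 3 highest and lowest levels and those with a known role. Dye contrasts, Tsp42Ek, Tace and the gut genes were added after their values were seen. Tsp3A was not analysed here. Alternatives were no dye term, a replicate block, zeros kept, values held at 8, median centring, quantile scaling, array weights, a lower minimum of 2 ratios, each dye alone and leaving out arrays. The number of arrays limits the precision, and no spot intensities were used here.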

Additional observations from a re-analysis of the deposited data

Results flagged for a closer look

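Tsp42Eq stood at 2.90 (log2 ratio) on wildtype replicate 6, against -1.78 to -0.03 on the other wildtype arrays, a gap to its nearest neighbour that passed Dixon's criterion. Tsp74F stood at -8.73 on mutant replicate 1, against -5.20 to -4.28 on the other mutant arrays. These 2 values were found among 50 groups of a gene examined, and chance gives such a gap in about 1 in 20 groups. The difference between prospero mutant and wildtype cells differed between the dye orientations for Tsp42Ej, by -5.80 (Cy5 minus Cy3), and for lbm, by -3.94, both by the limma interaction test.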

How the results depend on the processing

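With the fit as reported, 404 of all rows and 3 tetraspanin genes passed. Over all rows there were 187 without the dye term, 106 with a replicate block, 132 with zeros kept, 611 after median centring, 663 with array weights, 2 with the cells in Cy3 only, 3 without wildtype replicates 4 to 6 and 878 without wildtype replicates 1 to 3, and 117 to 549 when single arrays were left out. The median difference of all rows was -0.13 as reported, 0.071 after median centring and 0.088 after quantile scaling, and that of the cluster was 0.037 and 0.066 under those scalings, below the rows' own median as in the reported fit. Of the tetraspanin genes, 1 passed without the dye term (Tsp42Ea), with the replicate block (Tsp42Ea), with values held at 8 (Tsp86D) and after quantile scaling (Tsp42Ea); 0 passed with zeros kept (6 at an unadjusted p under 0.05), in Cy3 only (1) and without wildtype replicates 4 to 6 (2). lbm was lost under each of those settings and after median centring (adjusted p 0.0518), and at a minimum of 2 ratios (0.0590); Tsp86D was lost without the dye term (0.0810) and with the replicate block (0.124). Leaving out single arrays gave 0 to 3 tetraspanin genes. The median difference of the cluster was -0.94 with zeros kept and -0.73 with values held at 8, and -0.35 to 0.09 with single arrays left out; that of the other genes was -0.96 to -0.45. The prospero difference was -5.47 to -5.03. Some uncalled genes changed direction: with the cells in Cy3 only and without wildtype replicates 4 to 6, Tsp2A (1.42), Tsp39D (-0.22), Tsp42Eg (-0.13), Tsp42Ej (0.63), Tsp42Ep (-0.12), Tsp96F (-0.041) and Tsp97E (-0.15); with the cells in Cy5 only and without wildtype replicates 1 to 3, Tsp42Ed (-0.40); and after median centring (0.037) and quantile scaling (0.066), Tsp42Ef. With single arrays left out the differences were -0.93 to 0.063 for Tsp2A, -0.042 to 0.72 for Tsp39D, -0.18 to 0.44 for Tsp42Ed, -0.34 to 0.0056 for Tsp42Ef, -1.05 to 0.014 for Tsp42Eq and -0.013 to 0.59 for Tsp96F. The causes were not tested. The replicate block ended the calls of lbm (adjusted p 0.115) and Tsp86D. The labels do not say what the numbers share; correlations of same-numbered arrays, after the mean of each group and dye, were 0.0622 to 0.262 over 6361 rows and not all above 0.1, although each of the 6 mutant arrays correlated best, among wildtype arrays of its dye, with that of its own number, a hint of pairing from the data and not the design. Spot intensities were not used here, so signal over background could not be weighed.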

Other observations

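TM4SF, a tetraspanin gene whose symbol lies outside the naming pattern used, had a difference of -1.21 between prospero mutant and wildtype cells (limma adjusted p = 0.248).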
